A study of Mus musculus with 12 samples.

Results

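The kinesin superfamily was followed through the axons and the cell bodies of Smn-knockdown mouse motoneurons. Members were the protein-coding genes whose symbol is Kif followed by a digit, which gave 37 of the 39174 genes in the expression tables, 22736 of them protein coding. Motor neuron cultures on a CD-1 background were kept in microfluidic chambers that let axons grow into a side of their own, apart from somata and dendrites, and total RNA was taken from each side with the PicoPure kit. The axonal group held 6 libraries and the somatodendritic group held 6, numbered 1 to 6 in each. All 12 came from cultures with Smn, the gene deficient in spinal muscular atrophy, knocked down. The comparison was therefore between 2 compartments of Smn-depleted cultures, and no culture with normal Smn was analysed here. The labels give neither the means of the knockdown nor whether replicates were separate cultures, and the p-values therefore reflect only how far these libraries spread, which may be technical.

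Kinesins are motors that use ATP to act on microtubules. The transport kinesins carry vesicles, mitochondria and RNA granules, mostly towards the plus ends of microtubules, which in axons point to the growth cone. Mitotic kinesins build the spindle, move chromosomes and complete cytokinesis in dividing cells. A place in this class does not exclude a role in neurons, where Kif11 also acts.

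Expression was given as FPKM, fragments divided by transcript length and library size, and levels below are FPKM after scaling of the libraries to each other. Log2 fold changes are axonal minus somatodendritic on the log2(scaled FPKM + 1) scale, on which low genes appear to change less than they do. The size of the smallest steps in the FPKM values implied about 218000 to 728000 reads per axonal library and 55000 to 362000 per somatodendritic library, the lowest being somatodendritic replicate 4. For a gene with 5 kb of exons, 1 read was then worth 0.275 FPKM in the deepest library and 3.66 FPKM in the shallowest. Short non-coding RNA took 5.61% to 8.68% of the summed FPKM in replicates 1 and 2 of both compartments. In replicates 3 to 6 it took 12.9% to 22.0%. Fold changes within each of these sets are therefore given for several kinesins, though not for all. Markers of neurons summed to 897.1 to 1234 scaled FPKM in the axonal and 959.7 to 1563 in the somatodendritic libraries. Of these 8 markers 7 had fold changes below 0 (median -0.30), and Map2 lay above 0, at 0.21. Of the 7 motoneuron markers in the tables, Chat and Mnx1 were listed at 0 in all 12 libraries, and the 7 together reached at most 9.68 scaled FPKM. Markers of astrocytes and radial glia summed to 128.9 to 735.3 on the axonal side and 267.4 to 308.5 on the other, but 5 of the 7 had fold changes below 0 (median -0.45), and Vim, the one with the largest mean, stood at 242.5 on the axonal side and 77.6 on the other. In such bulk samples, fewer cells of a type and less RNA per cell cannot be told apart.

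Of the 37 kinesin genes, 27 reached a mean of 1 FPKM and were tested. The other 10 were Kif2b, Kif6, Kif7, Kif12, Kif13b, Kif14, Kif15, Kif19a, Kif26a and Kif27, and Kif2b was listed at 0 in every library. No kinesin passed the limma test at a Benjamini-Hochberg adjusted p under 0.05, and the lowest adjusted p among them was 0.319, for Kif18a. The background was equally sparse, with 1 gene of 13914 tested passing, or 0.00719%. At an unadjusted limma p under 0.05 stood 3 kinesins, Kif18a, Kif1a and Kif2c, which is 11.1% of those tested against 8.9% of all genes, a share near the background. An exact two-sided rank-sum test placed 3 kinesins, Kif18a, Kif1a and Kif5c, under an unadjusted p of 0.05, where 7.68% of all genes stood. It called no kinesin after adjustment, and the smallest p that 6 against 6 libraries allow is 0.00216. The axonal values of Kif18a and Kif1a all lay above all somatodendritic values, which held for 2 of 27 kinesins and for 0.417% of all genes. No kinesin had the opposite separation, against 0.295% of all genes. The fold change was above 0 for 23 of the 27, against 60.6% of all genes, and the median was 0.50 against 0.18 over all genes. That split depended on the scaling: 18 of 27 lay above 0 on the FPKM as deposited and 20 of 27 on either a common sum or quantiles, where 50.1%, 53.0% and 47.7% of all genes did. The kinesin median was 0.26 on the FPKM as deposited, 0.32 on a common sum and 0.15 on quantiles. Of the 27, Kif17, Kif18a, Kif18b, Kif20b, Kif23, Kif2c and Kif9 reached a mean of 1 FPKM in the axonal group alone and none in the somatodendritic group alone. Their direction is thus partly set by the filter, and the counts and medians are a description only. A p that misses the threshold does not show that a level was the same in both compartments.

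**Figure D1:**
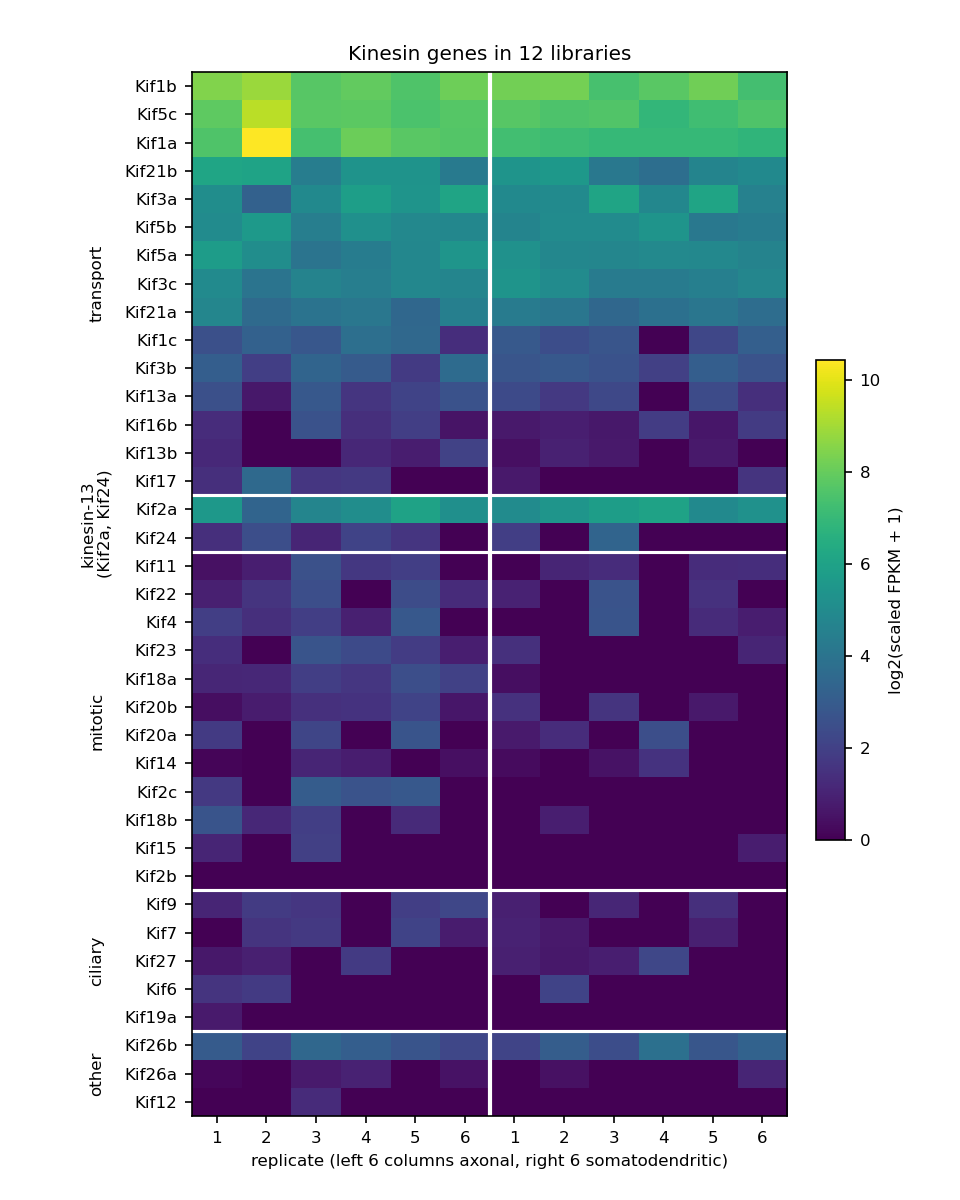
Scaled FPKM of the kinesin genes, on the log2(scaled FPKM + 1) colour scale, in the 6 axonal and 6 somatodendritic libraries, with genes ordered by role. Kif1b, Kif5c and Kif1a are the brightest rows in both compartments, and most mitotic kinesins are at or near 0 in the somatodendritic columns.

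The superfamily was dominated in both compartments by Kif1b, Kif5c and Kif1a, which together held 64.0% to 91.3% of the summed kinesin FPKM of a library. The 91.3% was that of axonal replicate 2 alone, and the next highest library, axonal replicate 4, stood at 72.2%. By the median over the 12 libraries Kif1b came first and Kif5c came next, but Kif1b exceeded Kif5c in only 8 of 12 libraries, and Kif5c exceeded Kif1a in 8 of 12. The step from Kif1a down to Kif2a held in 12 of 12 libraries. Kif2a, Kif21b, Kif3a, Kif5b, Kif5a and Kif3c followed without a stable order, since each exceeded the next in only 5 to 9 libraries. Kif3c exceeded Kif21a in 12 of 12, and Kif21a exceeded Kif26b in 12 of 12.

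Kif1a, a kinesin-3 motor for synaptic vesicle precursors and dense-core vesicles (chromosome 1, 93015456 to 93101865, GRCm38), had the clearest separation of the abundant motors. Axonal replicates 1 to 6 stood at 189.6, 1376, 161.1, 273.4, 214.5 and 195.9 scaled FPKM, and somatodendritic replicates 1 to 6 at 151.6, 141.8, 125.0, 124.8, 124.7 and 113.4. The lowest axonal library, replicate 3, stood above the highest somatodendritic one, and axonal replicate 2 stood far above all others. The log2 fold change was 1.11 ± 0.40 (SE, n = 6 and 6, limma, adjusted p = 0.452). Without axonal replicate 2 it was 0.65 ± 0.17 (limma, adjusted p = 0.351), so that library set much of the size. Within replicates 3 to 6 it was 0.76 ± 0.21 (limma, adjusted p = 0.586), and within replicates 1 and 2 it was 1.80 ± 0.80 (limma, adjusted p = 0.779). Axonal replicate 2 was also the axonal library with the lowest Kif2a and Kif3a, at 9.2 and 8.41 scaled FPKM.

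Kif1b (chromosome 4, 149176319 to 149307693), whose isoforms carry mitochondria or synaptic vesicle precursors, had the highest median and overlapped between compartments. The axonal libraries ran from 187.1 to 465.2 with a median of 259.8 scaled FPKM. The somatodendritic libraries ran from 160.0 to 306.4 with a median of 251.5. The log2 fold change was 0.25 ± 0.24 (limma, adjusted p = 0.765), and it was -0.0039 on the FPKM as deposited, so no direction is given. The ratio of Kif1a to Kif1b, which dividing a library by a factor leaves as it is, was 0.544, 2.96, 0.771, 1.13, 1.15 and 0.706 for axonal replicates 1 to 6. The somatodendritic ratios were 0.518, 0.463, 0.751, 0.583, 0.432 and 0.709. Axonal replicates 2, 3, 4 and 5 stood above every somatodendritic library and axonal replicates 1 and 6 lay among them. Both genes are long with many transcripts, and FPKM sums those transcripts, so the isoforms of Kif1b were not separated.

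The other kinesin-3 motors were low. Kif1c, a motor of vesicles and integrins, ran from 1.57 to 13.1 in axonal and from 0 to 7.97 scaled FPKM in somatodendritic libraries. Kif13a, an endosomal motor, ran from 0.588 to 6.26 and from 0 to 4.24, and Kif16b, a motor of early endosomes, from 0 to 5.24 and from 0.57 to 2.6. Over the 5 kinesin-3 genes tested the median log2 fold change was 0.37, and none was called.

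**Figure D2:**
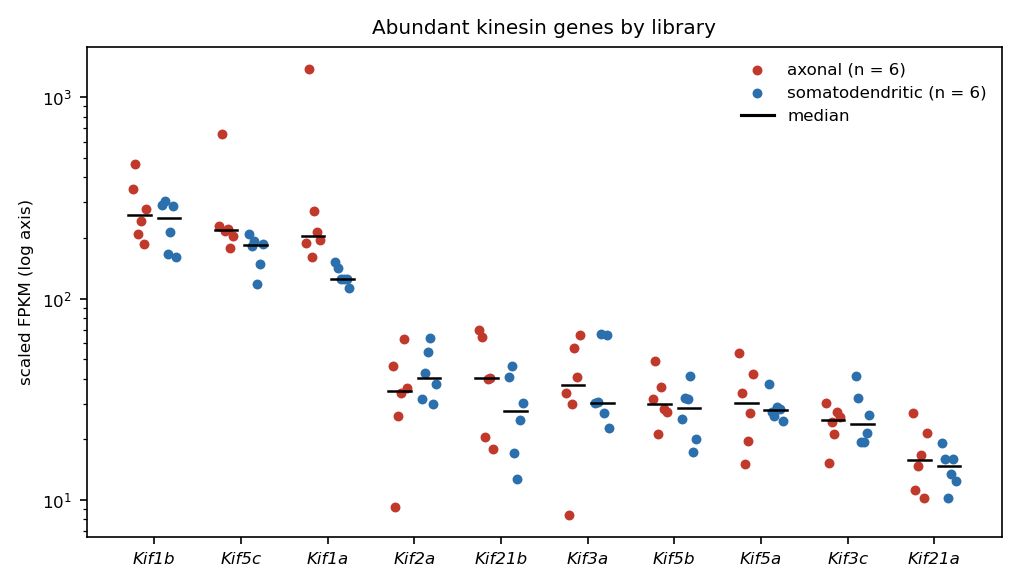
Scaled FPKM, on a log axis, of the 10 kinesins of highest median in each axonal and somatodendritic library, with 1 point per library and a bar at each group median. Axonal replicate 2 is the highest point of Kif1a, at 1376, and of Kif5c, at 658.0.

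The kinesin-1 heavy chains Kif5a, Kif5b and Kif5c make conventional kinesin, the motor of mitochondria, vesicles and RNA granules, with Kif5b found in most tissues and Kif5a and Kif5c enriched in neurons. Kif5c (chromosome 2, 49619298 to 49774778) held most of the kinesin-1 FPKM in every library, from 73.0% to 88.8% in axonal and from 62.7% to 80.6% in somatodendritic libraries. Axonal replicates 1 to 6 stood at 229.5, 658.0, 215.4, 222.8, 178.8 and 205.4 scaled FPKM, and somatodendritic replicates 1 to 6 at 210.3, 182.0, 192.4, 117.9, 147.8 and 185.8. Again axonal replicate 2 stood apart, and the remaining axonal values met the somatodendritic ones from 178.8 to 210.3. The log2 fold change was 0.58 ± 0.28 (limma, adjusted p = 0.570), but 0.30 without axonal replicate 2 and 0.32 on the FPKM as deposited. Within replicates 3 to 6 it was 0.37, and within replicates 1 and 2 it was 0.99.

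Kif5a (chromosome 10, 127225696 to 127263363), the kinesin-1 gene mutated in human spastic paraplegia and amyotrophic lateral sclerosis, ran from 15.1 to 53.5 with a median of 30.4 scaled FPKM in axonal libraries. The somatodendritic libraries ran from 24.7 to 37.7 with a median of 27.8 and lay wholly inside that range. The log2 fold change was 0.03 ± 0.30 (limma, adjusted p = 0.985), and its sign turned under each of the 3 other scalings. Kif5b (chromosome 18, 6201002 to 6242174) ran from 21.3 to 48.9 in axonal and from 17.3 to 41.3 in somatodendritic libraries, a wide overlap. Its log2 fold change was 0.21 ± 0.28 (limma, adjusted p = 0.834) and -0.035 on the FPKM as deposited.

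Kif3a and Kif3b are the motor pair of heterotrimeric kinesin-2, which carries membrane cargo in axons and drives transport in cilia. Kif3a (chromosome 11, 53567379 to 53601967) ran from 8.41 to 66.3 with a median of 37.3 scaled FPKM in axonal libraries. The somatodendritic libraries ran from 22.8 to 66.8 with a median of 30.4, and the ranges shared nearly the same upper end. The log2 fold change was -0.14 ± 0.44 (limma, adjusted p = 0.934), and it was 0.18 within replicates 3 to 6, -0.79 within replicates 1 and 2 and 0.23 without axonal replicate 2. Kif3c, the neuronal partner of Kif3a, ran from 15.3 to 30.4 and from 19.3 to 41.1. Kif3c shares 2617 of its 7406 exonic bases with 1110002L01Rik on the opposite strand, a gene with means of 0.558 in axonal and 4.21 in somatodendritic libraries. Kif3b ran from 2.39 to 11.5 and from 2.94 to 7.75, far below Kif3a per length. It has 1 annotated transcript, which let its values be read as whole reads: 3 to 49 reads in axonal libraries and 1 to 16 in somatodendritic ones. Kif17, a dendritic motor of NMDA receptor vesicles, was listed above 0 in axonal replicates 1 to 4, at 1.61, 10.8, 2.1 and 2.28. It was above 0 in somatodendritic replicates 1 and 6 alone, at 0.644 and 1.93, and its log2 fold change was 1.00 ± 0.61 (limma, adjusted p = 0.641). Kif17 shares 74 exonic bases with Sh2d5 on the same strand.

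The kinesin-4 motors Kif21a and Kif21b regulate microtubule growth in neurons. Kif21a (chromosome 15, 90933276 to 91049948) ran from 10.2 to 26.9 scaled FPKM in axonal and from 10.2 to 19.3 in somatodendritic libraries. Its log2 fold change was 0.15 ± 0.32 (limma, adjusted p = 0.896) and turned to -0.079 on the FPKM as deposited. Kif21b ran from 17.9 to 69.9 in axonal and from 12.7 to 46.0 in somatodendritic libraries, with overlap. Kif2a (chromosome 13, 106958996 to 107022126), a kinesin-13 that takes microtubules apart and limits axon branching, ran from 9.2 to 62.9 in axonal and from 29.8 to 63.6 in somatodendritic libraries. Its log2 fold change was -0.42 ± 0.38 (limma, adjusted p = 0.762), and axonal replicate 2 was again the lowest library. Without that library the value was -0.091. Within replicates 3 to 6 it was -0.24, and within replicates 1 and 2 it was -0.79. Kif2a shares 1229 exonic bases with Dimt1 on the opposite strand, a gene with means of 2.24 in axonal and 0.678 in somatodendritic libraries. Over the 14 transport kinesins tested, of 15, the median log2 fold change was 0.24, with 12 above 0, but 7 were above 0 on the FPKM as deposited and 9 on either other scaling. The median was 0.060 as deposited, 0.11 on a common sum and 0.12 on quantiles. Summed, the 15 ran from 740.7 to 2704 in axonal, the highest being replicate 2, and from 605.2 to 867.1 scaled FPKM in somatodendritic libraries.

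The mitotic kinesins were 12 genes at low level. Of the 12, 10 had a higher mean in the axonal group, Kif14 had a lower one, at 0.389 against 0.423 scaled FPKM, and Kif2b was at 0 throughout. The filter kept 9 of them and none was called. The median log2 fold change of those 9 was 0.71, but Kif18a, Kif18b, Kif20b, Kif23 and Kif2c passed through the axonal group alone, so the filter partly sets that value. Over the 11 above 0 in some library, with no filter, it was 0.59. For the 9 it was 0.65 without Kif2c, 0.37 on quantiles, 1.71 with a pseudocount of 0.1 and 0.24 with a pseudocount of 5. The axonal libraries were on the whole deeper than the somatodendritic ones, and the part of depth in which genes were listed at 0 was not tested. Kif18a, which damps chromosome movement at metaphase (chromosome 2, 109280738 to 109341747), was detected in every axonal library, at 1.19, 1.24, 2.84, 2.14, 4.71 and 2.99 scaled FPKM for replicates 1 to 6. In the somatodendritic group it stood at 0.307 in replicate 1 and at 0 in replicates 2 to 6. All 6 axonal libraries were above all 6 somatodendritic ones, and the log2 fold change was 1.67 ± 0.41 (limma, adjusted p = 0.319). Kif18a passed the filter only through its axonal values. With 5 of 6 somatodendritic libraries at 0 its fold depended on the pseudocount, at 4.22 with 0.1 and 0.56 with 5. Within replicates 3 to 6 it was 2.02 ± 0.59 (limma, adjusted p = 0.614), and within replicates 1 and 2 the gene was under the filter.

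Kif2c, the kinesin-13 that corrects wrong chromosome attachments (chromosome 4, 117159639 to 117182639), was listed at 2.28, 0, 7.2, 5.36, 6.31 and 0 in axonal replicates 1 to 6. It was listed at 0 in all 6 somatodendritic libraries, so no fold is given (limma, adjusted p = 0.425). Axonal replicates 2 and 6 did not differ from the somatodendritic libraries in this. Kif23, the motor of the central spindle in cytokinesis, was at 1.56, 0, 5.58, 4.14, 2.62 and 0.858 in axonal replicates 1 to 6. In somatodendritic libraries it was above 0 in replicates 1 and 6 alone, at 1.75 and 1.11. The groups overlapped, and the log2 fold change was 1.11 ± 0.54 (limma, adjusted p = 0.581).

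Kif18b, which acts on astral microtubules, was above 0 in 4 axonal libraries, up to 5.47, and in 1 somatodendritic library at 0.812. Its log2 fold change was 1.03 ± 0.53 (limma, adjusted p = 0.592). Kif4, a chromosome-bound motor that also shortens the central spindle, was above 0 in 5 axonal libraries, up to 6.32, and in 3 somatodendritic ones, up to 5.6. Its log2 fold change was 0.71 ± 0.60 (limma, adjusted p = 0.750), with 0.23 within replicates 3 to 6 and 1.66 within replicates 1 and 2. Kif4 shares 832 of its 5514 exonic bases with Pdzd11 on the opposite strand. Pdzd11 had means of 19.7 in axonal and 21.3 in somatodendritic libraries, against 2.42 and 1.30 for Kif4. Kif11, which pushes spindle poles apart and also acts in neurons, ran from 0 to 4.96 in axonal and from 0 to 1.57 in somatodendritic libraries, and the log2 fold change was 0.40 ± 0.53 (limma, adjusted p = 0.838). It ran from 0.13 without axonal replicate 3 to 0.65 without axonal replicate 6, and was 0.088 on quantiles. Kif22 and Kif20b overlapped between the groups, and Kif20a, a cytokinesis motor, was above 0 in 3 libraries of each. Kif20a shares 1271 of its 4338 exonic bases with Cdc23 on the opposite strand. Cdc23 had means of 34.6 in axonal and 23.3 in somatodendritic libraries, against 1.91 and 1.14 for Kif20a. No source used here gives the read strand, so reads on the shared bases cannot be told from those of Cdc23. The same limit holds for the shared bases of Kif2a, Kif3c and Kif4. Kif14 was above 0 in 4 axonal and 3 somatodendritic libraries and Kif15 in 2 and 1.

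**Figure D3:**
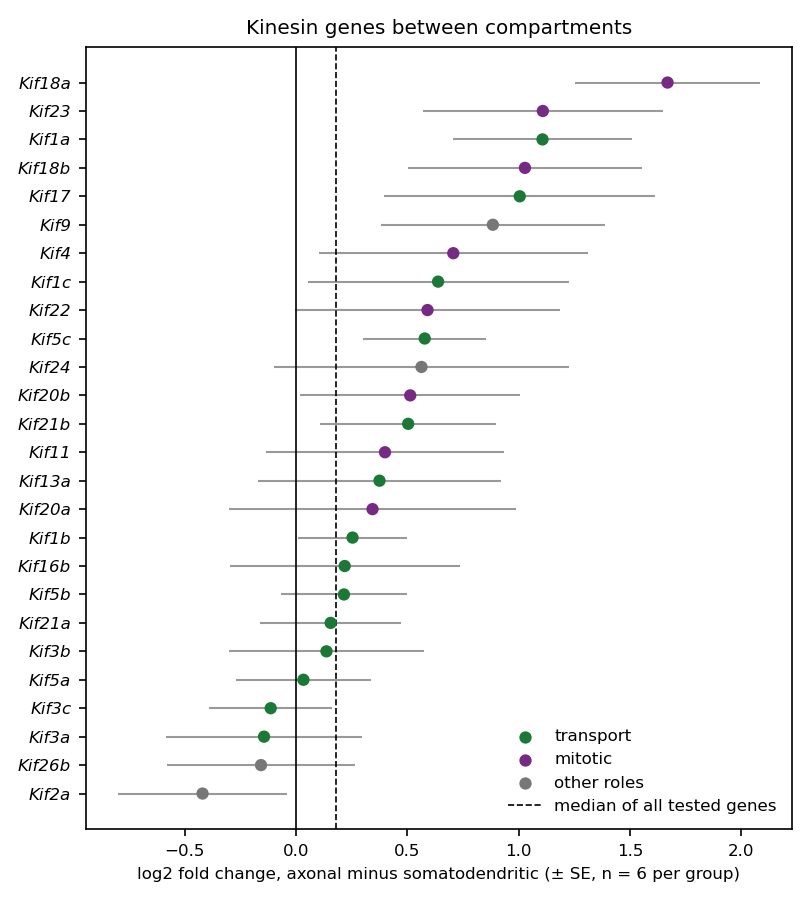
Log2 fold change, axonal minus somatodendritic on the log2(scaled FPKM + 1) scale, of the tested kinesins apart from Kif2c, with bars of 1 standard error and a line at the median of all tested genes, 0.18. Kif18a lies farthest right, at 1.67 with a pseudocount of 1, and none of the plotted genes passed the test.

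Summed over the 12 genes, the mitotic kinesins came to 18.5, 7.59, 40.2, 17.5, 37.2 and 6.13 scaled FPKM in axonal replicates 1 to 6. They came to 5.75, 3.45, 14.9, 6.54, 5.39 and 4.23 in somatodendritic replicates 1 to 6. Axonal replicates 1, 3, 4 and 5 stood above every somatodendritic library, and axonal replicates 2 and 6 lay among them. The mitotic genes made up 0.277% to 4.87% of all kinesin FPKM in axonal libraries and 0.389% to 1.97% in somatodendritic ones. Markers of cycling cells were present in both compartments. All 10 were above 0 in some library, and their summed level ran from 16.9 to 211.6 in axonal and from 16.2 to 79.3 in somatodendritic libraries, with the highest value in axonal replicate 3. Of these markers 9 were tested and 6 had a fold change above 0, with a median of 1.23 and values from -0.62 for Ccnb1 to 1.41 for Mki67 (limma, lowest adjusted p = 0.497). Aurkb, at -0.55, and Cdk1, at -0.21, were the others below 0. The fibroblast list summed to 17.5 to 184.0 and to 3.65 to 20.4 in the same order of compartments, with 6 of 7 above 0 in some library. Thbs1 alone held 12.6 to 178.9 of the axonal sums. Dcn was at 0 throughout, Col1a2, Col3a1 and Lum reached at most 0.662, 0.636 and 1.95, and Pdgfra had means of 3.51 and 3.48. Col1a1 had means of 2.04 in axonal and 0.466 in somatodendritic libraries. Of the fibroblast list 3 were tested, with 3 above 0, a median log2 fold change of 0.96 and none called. The erythroid list summed to 4.52 to 43.5 and to 0 to 7.51, with 3 of 4 above 0 in some library and Hbb-bh1 at 0 throughout. Hba-a1 and Hbb-y were at 0 in all somatodendritic libraries, with axonal means of 5.67 and 10.2. Alas2 went the other way, with means of 0.855 in axonal and 2.27 in somatodendritic libraries and a log2 fold change of -0.66. Other lists went both ways. Markers of Schwann cells and oligodendrocytes had a median log2 fold change of -0.26, with 2 above 0 and 4 below. Those of microglia and macrophages had 0.16, with 5 above 0 and 1 below. Of the endothelial and skeletal muscle lists 1 gene each was tested, at 1.41 and -0.30. The part of cycling or other cells in the mitotic values was not tested. Partners of the mitotic motors gave a median log2 fold change of 1.17 over 13 tested, with 11 above 0 and none called. Among them Anln, which scaffolds the cleavage furrow, had 1.62 (limma, adjusted p = 0.486) and Prc1, which bundles central spindle microtubules, had 1.54 (limma, adjusted p = 0.517).

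**Figure D4:**
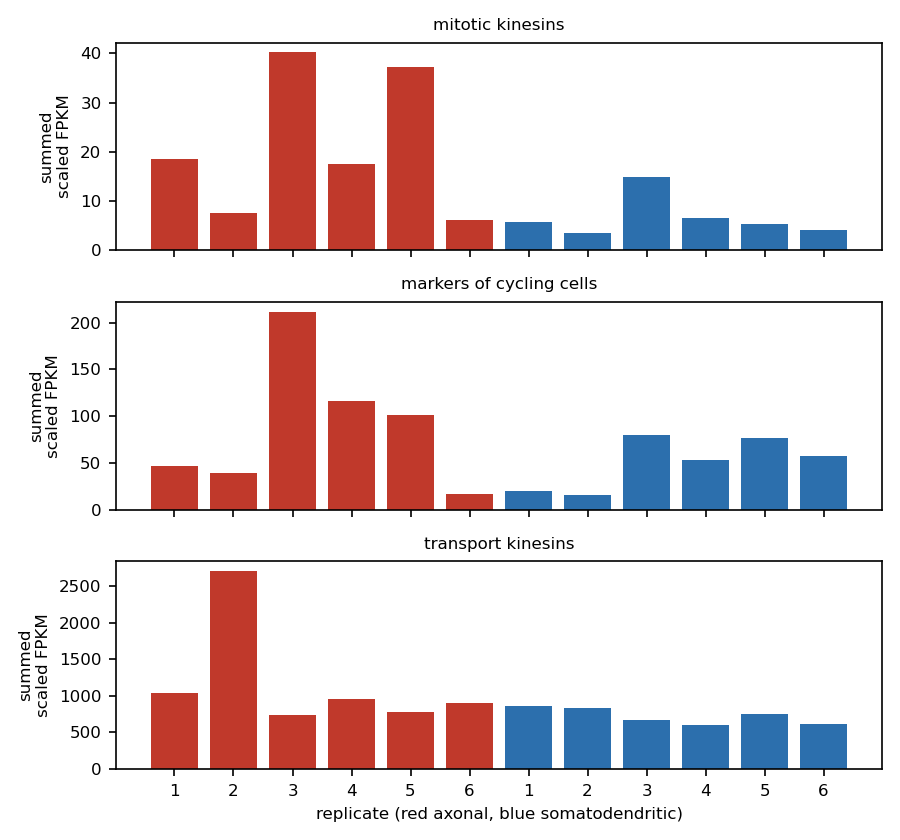
Summed scaled FPKM of the 12 mitotic kinesins, the 10 markers of cycling cells and the 15 transport kinesins, in 3 panels with 1 bar per library, red for axonal and blue for somatodendritic. Axonal replicate 3 is highest in the upper panels, at 40.2 and 211.6, and axonal replicate 2 in the lowest panel, at 2704.

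Most of the mitotic kinesins hold a short element in a window searched around their start, which is shown as a feature that the choice of members did not use. RefSeq windows on GRCm38.p6, from 250 bases before to 50 after the transcription start, matched 31 of the 37 kinesins. These 31 genes had 35 windows, so some genes had more than 1. For each motif below, kinesins are counted by gene, while the share of all windows is a share of single windows. A gene with several windows has more chances of a match, so counts and shares are not directly comparable. The letters TTTGAA, the core of the cell cycle genes homology region found in promoters of genes active late in the cycle, were searched on both strands. They were present for 9 of the 11 mitotic kinesins with a window, all but Kif18a and Kif2b, for 1 of 11 transport kinesins, Kif1a, and in 17.9% of all 32851 windows. CCAAT, bound by NF-Y, was present for 7 of 11 mitotic and 3 of 11 transport kinesins and in 37.4% of all windows. No match of one motif overlapped a match of another in the kinesin windows. Capitals mark TTTGAA, or TTCAAA where it lies on the other strand, and each stretch runs 5′ to 3′ along the gene.
Kif11, chr19:37376323-37376388, strand plus: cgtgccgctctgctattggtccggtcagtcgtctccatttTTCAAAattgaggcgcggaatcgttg
Kif23, chr9:61946772-61946837, strand minus: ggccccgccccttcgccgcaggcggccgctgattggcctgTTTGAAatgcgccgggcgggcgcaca
Kif18b, chr11:102925096-102925161, strand minus: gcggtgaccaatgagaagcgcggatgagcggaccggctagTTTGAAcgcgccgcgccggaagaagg
Kif20b, chr19:34922325-34922387, strand plus: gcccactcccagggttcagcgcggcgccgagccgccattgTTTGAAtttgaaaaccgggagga
Kif22, chr7:127042412-127042477, strand minus: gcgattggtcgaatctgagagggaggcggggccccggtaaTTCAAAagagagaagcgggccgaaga
In these the motif starts 19 bases before the start in Kif11, at base 3 in Kif23, base 4 in Kif18b and base 8 in Kif20b with the start counted as base 1, and 17 bases before it in Kif22. Kif20b carries a second copy directly after the first, left in lower case. A match is a description of the letters and not a measured binding site.

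TGACGTCA, the palindromic cAMP response element, stood in 1.79% of all windows and was present for the transport kinesins Kif5c and Kif17 and for the mitotic Kif18a. The stretches of the transport genes are shown because Kif5c is one of the 3 dominant motors. Capitals mark the element, which starts 26 bases before the start in Kif5c and 86 bases before it in Kif17. The RefSeq start used for Kif17 lies inside the locus given with its FPKM, which begins upstream at 138250435.
Kif5c, chr2:49619220-49619287, strand plus: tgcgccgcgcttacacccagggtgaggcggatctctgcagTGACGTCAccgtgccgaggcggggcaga
Kif17, chr4:138262125-138262192, strand plus: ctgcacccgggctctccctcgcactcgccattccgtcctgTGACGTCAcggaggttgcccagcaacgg
The 4 other motifs searched were TTTAAA, TTTCCCGC, TTTGGCGC and the palindromic site of NRF1. They were present for 2, 0, 2 and 0 of the 11 mitotic kinesins, for no transport kinesin, and in 13.2%, 1.07%, 0.514% and 0.971% of all windows.

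The remaining kinesins were low or hardly seen. Kif9, a motor of motile cilia, was above 0 in 5 axonal libraries, from 1.12 to 3.72, and in 3 somatodendritic ones, from 0.895 to 1.63 scaled FPKM, and the log2 fold change was 0.88 ± 0.50 (limma, adjusted p = 0.614). Kif26b, a kinesin of developing tissues, ran from 3.33 to 10.3 in axonal and from 3.45 to 13.3 in somatodendritic libraries. Kif24, a centriolar kinesin, was above 0 in 5 axonal libraries and in somatodendritic replicates 1 and 3, the latter at 9.35, the highest of the 12.

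The chains and adaptors that join kinesins to cargo gave no call either. Of the 5 light and accessory chains 4 were tested, none had a fold change above 0, and the median was -0.37. Klc1, a light chain of kinesin-1, ran from 61.6 to 160.5 in axonal and from 98.8 to 181.6 in somatodendritic libraries, and its log2 fold change was -0.47 ± 0.24 (limma, adjusted p = 0.602). Kifap3, the accessory chain of kinesin-2, ran from 14.1 to 27.8 and from 22.3 to 32.1, with -0.47 ± 0.25 (limma, adjusted p = 0.604). Of the 31 cargo adaptors tested 15 lay above 0 and 16 below, with a median of -0.027, and 9 lay above 0 on the FPKM as deposited and on a common sum. Hap1, which links huntingtin to motors, had -0.50 ± 0.23 (limma, adjusted p = 0.537) and Htt, huntingtin itself, had 1.03 ± 0.50 (limma, adjusted p = 0.581). Over the 5 kinesins of the Kifc type and Cenpe the median was 0.59 with none called, and the lowest adjusted p was 0.764 (limma).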

How the data were processed

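The deposited tables give FPKM per gene, made by the authors with Cufflinks 2.2.1 on GRCm38, with FastQC 0.10.1 also listed, per the submitters' processing notes; how strand and reads matching several genes were handled is not known from these notes. Depth was read from the steps of low FPKM values in 2935 protein-coding genes with 1 transcript. Of the 370 to 873 such values per library of up to about 5 reads, 64.4% to 70.3% lay within 0.02 of a whole read. That share was too low to recover counts, so no count test was run.

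FPKM of the 12 libraries were divided by median-of-ratios factors over genes above 0 in all, and log2(scaled FPKM + 1) of the 13914 genes with a mean of at least 1 FPKM was fitted by compartment with limma 3.58.1 (R 4.3.3, trended and robust moderation). P-values were adjusted over all genes by Benjamini-Hochberg, with a threshold of 0.05. Scaled values under 0.01 count as 0. Medians over gene lists carry no test. Fold changes are printed for kinesins past the test and the 8 tested of largest absolute fold change. They are also printed for 9 chosen motors, Kif5a, Kif5b, Kif5c, Kif1a, Kif1b, Kif3a, Kif21a, Kif2a and Kif11. The 2 of lowest p in each pathway list have theirs printed too. Exceptions are Kif2c, at 0 in all somatodendritic libraries, and the list of Kifc kinesins and Cenpe, given as a median only. The marker genes given with values were chosen after those values were seen. The members and lists were chosen with earlier results of these data known. The fit did not pair libraries by replicate number, and the labels do not say whether equal numbers belong together. Alternatives changed scaling, pseudocount, filter, replicate sets, weights, moderation, test and libraries. The fit was tested on simulated data with 200 changed genes. Promoters came from RefSeq, matched by symbol. Python 3.11.15, numpy 2.4.6, pandas 2.3.3, scipy 1.17.1 and matplotlib 3.10.9 were used.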

Additional observations from a re-analysis of the deposited data

Results flagged for a closer look

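In axonal replicate 2 Kif1a stood at 1376 scaled FPKM, with the other 5 axonal libraries from 161.1 to 273.4. In the same library Kif5c stood at 658.0, with the others from 178.8 to 229.5. Kif5a in somatodendritic replicate 1 stood at 37.7, with the others of that compartment from 24.7 to 28.9. In each case the gap to the nearest library was above the 95% limit of Dixon's test for 6 samples. Among the 29 groups tested in this way chance flags about 1 in 20.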

How the results depend on the processing

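No kinesin was called under any alternative run, and the lowest adjusted p among the named kinesins was 0.194 (limma). The genes called, 1 in the main fit, became 3 with a pseudocount of 0.1, 6 with the replicate set (1 and 2, or 3 to 6) as a term, 7 in replicates 3 to 6, 0 in replicates 1 and 2, 7 without axonal replicates 1 and 2, 5 with array weights, 3 with plain moderation and 0 with the rank-sum test, and 1 to 11 with 1 library left out (3 without axonal replicate 1, 2 without axonal replicate 2 or 4, and 11 without axonal replicate 6). With each gene's compartment mean subtracted, same-numbered libraries correlated at -0.0005 to 0.243, and only 3 of 6 best with their own number. These are correlations of the deviations that remained, not of the levels. With the replicate block 5 genes were called. The mitotic median of 0.71 became 1.71 with a pseudocount of 0.1 and ran from 0.54 to 1.01 with 1 library left out, and the transport median from 0.21 to 0.35. No mitotic member reached a mean of 5 FPKM, so that median could not be given. Of 16 named kinesins 6 changed sign somewhere, in 22 of 399 values. On the FPKM as deposited Kif1b was -0.0039, Kif21a -0.079, Kif5a -0.21 and Kif5b -0.035; on a common sum Kif21a was -0.019 and Kif5a -0.15; on quantiles Kif5a was -0.042. Kif3a was 0.18 and Kif5a -0.15 in replicates 3 to 6, and Kif21a -0.0039 and Kif23 -0.052 in replicates 1 and 2. Without axonal replicates 1 and 2 Kif1b was -0.023, Kif3a 0.32 and Kif5a -0.23, and with array weights Kif3a was 0.036. With 1 library left out Kif3a ran from -0.34 to 0.23 and Kif5a from -0.14 to 0.21. The cause was not tested. The median of all genes, 0.18 in the main fit, was 0.001 on the FPKM as deposited, 0.05 on a common sum and -0.03 on quantiles. With 1 read on 5 kb worth up to 3.66 FPKM, depth limits the precision of all low values.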
